A study of Mus musculus with 6 samples.

Results

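The nuclear-encoded subunits of oxidative phosphorylation were examined in cartilage cells (primary chondrocytes) of newborn mice. A2ARKO mice lack the adenosine A2A receptor through a knockout on a C57BL/6 background, and WT mice are C57BL/6. Both genotypes were housed and fed alike, and each of the 3 libraries of a genotype holds RNA from the pooled cells of 1 litter, so a replicate is a litter and the spread is that between litters. The study set the genotypes against each other to characterize drivers of osteoarthritis, the joint disease in which cartilage is lost. Members were chosen by gene symbol from a table of 47480 genes: Ndufa, Ndufb, Ndufc, Ndufs or Ndufv followed by a number, the 4 Sdh genes, the Uqcr genes, the Cox4 to Cox8 forms and the Atp5 names, without Ndufaf and -ps rows. This gave 84 genes, 37 named for complex I, 4 for complex II, 8 for complex III, 18 for complex IV and 17 for complex V. Atp5sl is counted under complex V by its symbol alone, since its product acts in the assembly of complex I. Values are FPKM, fragment counts scaled to gene length and library size, and 79 of the 84 genes reached 1 FPKM in at least 3 of the 6 libraries and were tested.

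Oxidative phosphorylation is the route by which mitochondria turn the energy of nutrients into ATP. Complexes I and II feed electrons from NADH and succinate to ubiquinone, complex III passes them to cytochrome c, complex IV hands them to oxygen, and complex V, the ATP synthase, uses the proton gradient that complexes I, III and IV build. Complex II is wholly encoded in the nucleus, whereas the other complexes also hold subunits encoded in mitochondrial DNA, and these were not analysed here. Chondrocytes live in poorly oxygenated tissue and are known for drawing much of their ATP from glycolysis. Several complex IV subunits exist as a widely expressed form and a form typical of heart, skeletal muscle, lung or testis.

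The libraries were first checked against their labels. Adora2a, which encodes the A2A receptor (chromosome 10 of mm10, bases 75316877 to 75334784, plus strand), had 0.41, 0.54 and 0.66 FPKM in A2ARKO and 9.36, 7.31 and 3.46 FPKM in WT. Sequencing depth, read off the step size of low FPKM values, lay between 51.5 and 58.1 M reads for A2ARKO and between 41.6 and 52.6 M reads in WT. Of 12 cartilage markers 11 were in the table and none of them was at 0 throughout a group, but their summed level ranged from 2223 to 6243 FPKM in A2ARKO and from 485 to 24946 FPKM in WT, with the highest in WT replicate 1 and the lowest in WT replicate 3. Skeletal muscle markers (12 of 12 in the table) summed to 17.1 to 47.8 FPKM in A2ARKO and to 13.7 to 2128 FPKM in WT, and macrophage and leukocyte markers (10 of 10) to 16.9 to 45.2 FPKM in A2ARKO and to 128 to 1895 FPKM in WT, the highest of both in WT replicate 2. Fibroblast markers (6 of 6) summed to 2404 to 4241 FPKM in A2ARKO and 6122 to 8760 FPKM in WT. The groups did not overlap for 4 of the 6, Col1a1, Col1a2, Col3a1 and Dpt, all lower in A2ARKO, while Pdgfra and Thy1 overlapped, at log2 fold changes of 0.024 and 0.035. Of 9 tested macrophage and leukocyte markers 8 were also lower without overlap, against 14.9% of all genes tested. Adipocyte markers (5 of 5) summed to 81.8 to 188.6 FPKM in A2ARKO and 78.8 to 109.8 FPKM in WT. Of these, 2 were higher in A2ARKO without overlap, against 18% of all genes tested. In these bulk samples fewer cells of a type and less RNA per cell cannot be told apart.

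Most subunit genes lay at nearly the same level in both genotypes. Over the 79 tested members the median log2 fold change (A2ARKO minus WT, of FPKM + 1) was 0.018, with quartiles at -0.064 and 0.082. Over all 11595 tested genes the median was 0.0020 and the quartiles were -0.17 and 0.20. A total of 73 members and 9532 of all genes differed by less than 0.5 log2 units. By limma (adjusted p below 0.05 over all tested genes), 2 members were called, Ndufa12 and Cox6b2, both higher in A2ARKO, against 3.31% of all genes tested called higher. None was called lower, and in either direction 5.08% of all genes were called. At an unadjusted limma p below 0.05 there were 6 members, against 24.7% of all genes, and the groups did not overlap for 10 members, against 32.9% of all genes. These were 6 higher members (Ndufa12, Ndufa1, Ndufb6, Cox6b2, Cox8a and Cox7a2), against 18% of all genes, and 4 lower ones (Ndufb5, Uqcrc2, Cox6a2 and Atp5s), against 14.9%. For 60 of the 79 members the 95% interval of the difference lay within 0.5 log2 units on either side of 0, and for 74 within 1 unit. The replicate spread of the members was near that of other genes: the median SD of log2(FPKM + 1) was 0.10 in A2ARKO and 0.16 in WT, and over all genes tested 0.097 in A2ARKO and 0.19 in WT.

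**Figure D1:**
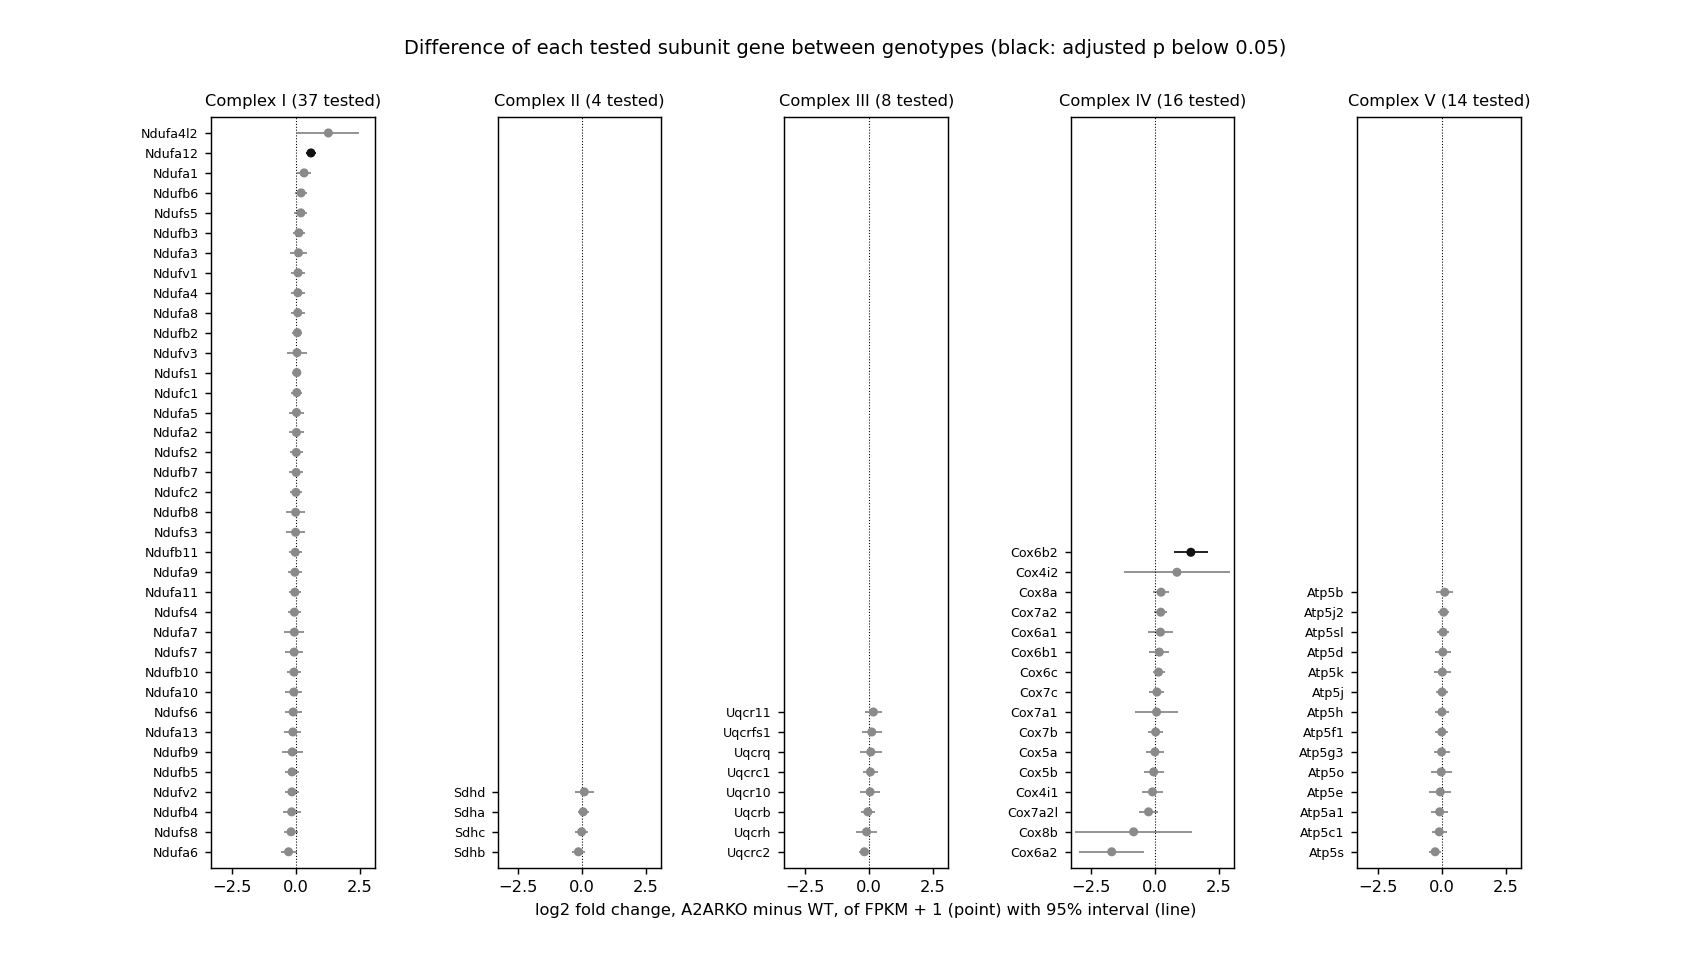
Log2 fold change of FPKM + 1, A2ARKO minus WT, for the 79 tested subunit genes in 1 panel per complex, with points for the limma estimate and lines for its 95% interval. Black marks Ndufa12 and Cox6b2, the 2 genes with an adjusted p below 0.05, and the long lines belong to Ndufa4l2 and the complex IV isoform genes.

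Complex I, the NADH dehydrogenase, had a median log2 fold change of 0.0091 over 37 genes. Its 7 core subunits, which together carry the flavin and the iron-sulfur clusters, differed by between -0.18 and 0.093 log2 units, and none was called. Ndufv1, which binds NADH, had 35.60, 32.96 and 30.92 FPKM in A2ARKO and 30.28, 35.33 and 27.78 FPKM in WT. Ndufs1, the largest iron-sulfur subunit, had 12.80, 12.02 and 11.95 FPKM in A2ARKO and 11.60, 12.40 and 11.54 FPKM in WT. The groups overlapped for both, with 95% intervals of -0.19 to 0.38 for Ndufv1 and -0.14 to 0.23 for Ndufs1.

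The accessory subunits of complex I, which surround and stabilize the core, numbered 28. Ndufb9, in the membrane arm, had the second-highest level of the complex I names at 116.39, 107.48 and 106.95 FPKM in A2ARKO and 141.05, 130.86 and 95.63 FPKM in WT. Ndufa6, in the matrix arm, had the lowest fold change, with 59.59, 53.82 and 53.99 FPKM in A2ARKO and 70.36, 76.11 and 58.13 FPKM in WT; its log2 fold change of -0.28 was not called (limma adjusted p = 0.24). The groups overlapped for both genes through WT replicate 3, the lowest WT library. Ndufa1, a small membrane-arm subunit encoded on the X chromosome and chosen after its values were seen, had 82.06, 84.83 and 91.93 FPKM in A2ARKO and 76.09, 66.88 and 62.86 FPKM in WT. Every A2ARKO library was above every WT library, at a log2 fold change of 0.33 that was not called (limma adjusted p = 0.15).

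Ndufa12 encodes a matrix-arm accessory subunit needed for assembly of that arm. It had 10.08, 11.37 and 10.79 FPKM in A2ARKO and 7.02, 6.71 and 6.54 FPKM in WT. The mean was 10.75 ± 0.65 FPKM in A2ARKO and 6.76 ± 0.24 FPKM in WT (SD, n = 3 each), a log2 fold change of 0.60 (SE 0.079; limma adjusted p = 0.018). The A2ARKO libraries were close together and all above the WT libraries. The call was lost without A2ARKO replicate 1, 2 or 3 (adjusted p of 0.056, 0.11 and 0.10) and with every library rescaled to the same sum (0.084), with the log2 fold change still between 0.49 and 0.64.

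The rise of Ndufa12 stood beside an opposite difference in a processed pseudogene that copies it. Gm15920 (mm10 chromosome 5, 130188395 to 130188796) lies within the gene Rabgef1 and is 402 nt long. Its GENCODE transcript matched 399 bases of the 447 in the Ndufa12 coding sequence, of which 397 were identical, so 99.5%. The pair is printed here over coding bases 49 to 168, because a read from this stretch can carry at most 1 base that tells them apart, shown in capitals:
Ndufa12: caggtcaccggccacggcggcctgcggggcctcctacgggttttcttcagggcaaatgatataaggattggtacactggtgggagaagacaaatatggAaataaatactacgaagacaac
Gm15920: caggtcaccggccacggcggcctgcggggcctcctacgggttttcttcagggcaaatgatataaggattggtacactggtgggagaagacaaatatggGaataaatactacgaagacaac
Of the 50-base words in the coding sequence of Ndufa12, 69.8% also occurred in that pseudogene.

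Gm15920 had 0.14, 0.09 and 0.19 FPKM in A2ARKO and 22.65, 24.50 and 19.90 FPKM in WT, that is, -4.35 on the log2 scale (limma adjusted p = 9.6e-05). The pseudogene was near 0 in every A2ARKO library and, per length, above Ndufa12 itself in every WT library. Multiplying each FPKM by the annotated exon length, 1569 nt for Ndufa12, gives a value in proportion to fragments. On that scale Gm15920 was below Ndufa12 in every WT library too, at 9.11, 9.85 and 8 against 11, 10.5 and 10.3. The sum of both on that scale was 15.9, 17.9 and 17.0 in A2ARKO and 20.1, 20.4 and 18.3 in WT. The sum was lower in every A2ARKO library than in any WT library, the reverse of Ndufa12 alone. The part of shared reads in the Ndufa12 difference was not tested. Ndufa12 lies on chromosome 10 (94198720 to 94221443, plus strand), 18.86 Mb from Adora2a. Rabgef1, the host gene, had 8.37 ± 0.19 FPKM in A2ARKO and 6.88 ± 0.44 FPKM in WT (SD, n = 3 each). Every A2ARKO library was above every WT library for Rabgef1, at a log2 fold change of 0.25 that was not called (limma adjusted p = 0.12).

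**Figure D2:**
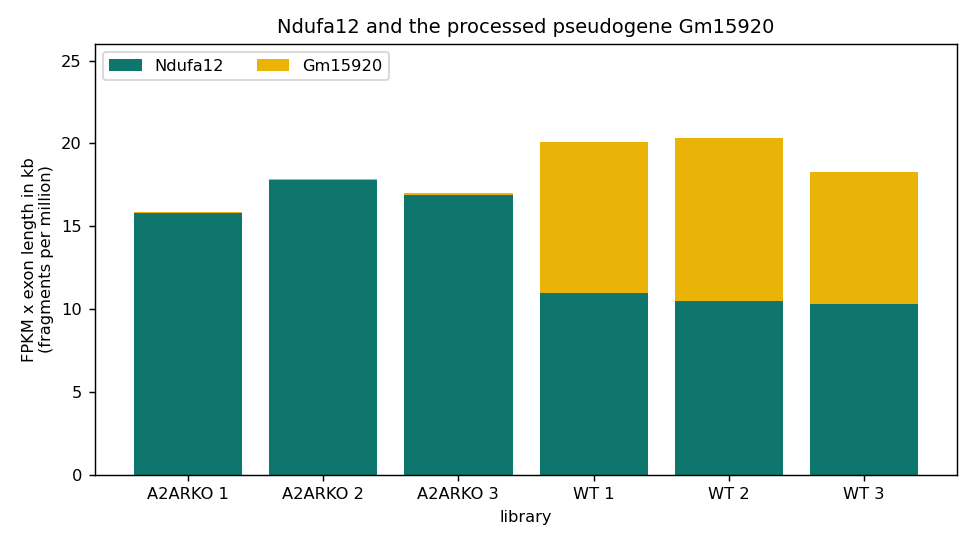
FPKM times annotated exon length in kilobases for Ndufa12 (lower bar part) and Gm15920 (upper part) in each library. This is in proportion to fragments if the deposited FPKM used the same lengths. The upper part is near 0 in the 3 A2ARKO libraries, and the whole bar reaches 15.9 to 17.9 in A2ARKO and 18.3 to 20.4 in WT.

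Ndufa4l2 is a relative of Ndufa4 that is known as a target of hypoxia-inducible factor, and Ndufa4, first purified with complex I, is now placed in complex IV. Ndufa4l2 had 123.39, 222.47 and 331.18 FPKM in A2ARKO and 128.36, 103.80 and 46.79 FPKM in WT. The highest values were in A2ARKO replicates 2 and 3, while A2ARKO replicate 1 lay below WT replicate 1, so the groups overlapped. Its end overlaps Shmt2, on the opposite strand, at 74.53 to 80.69 FPKM in A2ARKO and 56.21 to 81.57 FPKM in WT. The log2 fold change of 1.28 had a 95% interval of 0.071 to 2.48 and was not called (limma adjusted p = 0.18). Ndufa4 had 79.63, 70.22 and 65.12 FPKM in A2ARKO and 62.49, 68.50 and 70.95 FPKM in WT. The share of Ndufa4l2 in the sum of the pair was thus 60.8%, 76.0% and 83.6% in A2ARKO and 67.3%, 60.2% and 39.7% in WT. With 331 FPKM in 1 library, Ndufa4l2 reached the highest single value of any member. Within each genotype Ndufa4l2 ranked the libraries as the cartilage marker sums did, 2223, 4467 and 6243 FPKM in A2ARKO and 24946, 1326 and 485 FPKM in WT. Across genotypes it did not, since WT replicate 1 had the highest sum but less Ndufa4l2 than A2ARKO replicates 2 and 3. The part of cartilage cell content in the Ndufa4l2 values was not tested.

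Complex II, succinate dehydrogenase, links the tricarboxylic acid cycle to the respiratory chain. Sdha, its flavoprotein, had 62.81, 61.09 and 60.50 FPKM in A2ARKO and 56.78, 61.81 and 60.95 FPKM in WT, and a log2 fold change of 0.039 with a 95% interval of -0.17 to 0.25. Sdhb, the iron-sulfur subunit, had 33.23, 28.68 and 27.26 FPKM in A2ARKO and 32.50, 35.21 and 31.07 FPKM in WT, at a log2 fold change of -0.15 that was not called (limma adjusted p = 0.45). Of the membrane anchors, Sdhd had 73.71, 78.11 and 73.39 FPKM in A2ARKO and 67.95, 86.76 and 60.34 FPKM in WT. The groups overlapped for all 4 genes. The SD of the 4 genes was also small, with a median of 0.077 in A2ARKO and 0.098 in WT on the log2 scale.

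In complex III, the cytochrome bc1 complex, none of 8 genes was called, and the median log2 fold change was 0.062. Uqcrfs1, the Rieske iron-sulfur protein, had 48.56, 42.88 and 42.24 FPKM in A2ARKO and 35.76, 51.61 and 36.89 FPKM in WT. Uqcrc2, a core protein, had 43.40, 45.02 and 42.68 FPKM in A2ARKO and 47.70, 53.94 and 46.23 FPKM in WT. For Uqcrc2 every A2ARKO library was below every WT library, but the log2 fold change was only -0.17 and was not called (limma adjusted p = 0.33). The small subunit Uqcr10 and the hinge protein Uqcrh were the highest by mean, at 85.7 ± 3.6 and 70.1 ± 3.0 FPKM in A2ARKO and 83.4 ± 15.95 and 75.3 ± 15.6 FPKM in WT (SD, n = 3 each). Uqcr11, another small subunit, had the largest positive value, 0.18 (limma adjusted p = 0.45).

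Complex IV, cytochrome c oxidase, held both the most abundant and the most variable members. Its 10 widely expressed nuclear subunits had log2 fold changes between -0.11 and 0.23, and none was called. Cox6a1, the highest member by mean, had 248.31, 238.82 and 218.35 FPKM in A2ARKO and 264.86, 178.18 and 178.74 FPKM in WT. Cox6b1 had 197.67, 181.45 and 169.64 FPKM in A2ARKO and 151.62, 196.13 and 146.04 FPKM in WT. Cox4i1 had 156.80, 143.07 and 131.27 FPKM in A2ARKO and 158.09, 184.90 and 125.82 FPKM in WT. All 3 of these genes overlapped between the groups. Cox8a had 181.49, 162.41 and 154.54 FPKM in A2ARKO and 147.28, 145.27 and 131.59 FPKM in WT, and Cox7a2 had 98.94, 98.73 and 91.49 FPKM in A2ARKO and 84.44, 88.35 and 76.01 FPKM in WT. For both, each A2ARKO library was above each WT library, at log2 fold changes of 0.23 and 0.22 that were not called (limma adjusted p of 0.31 and 0.27). Cox7a2l, which helps to join complexes III and IV into supercomplexes, averaged 37.9 ± 1.9 FPKM in A2ARKO and 46.2 ± 8.8 FPKM in WT (SD, n = 3 each) and was not called (limma adjusted p = 0.33).

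Cox6b2 is known as the testis form of Cox6b and lies on mm10 chromosome 7 (4751792 to 4753094, minus strand). It had 9.67, 10.88 and 11.69 FPKM in A2ARKO and 3.27, 2.12 and 5.64 FPKM in WT. The A2ARKO values lay close together and all above the WT values, with means of 10.75 ± 1.0 FPKM in A2ARKO and 3.68 ± 1.8 FPKM in WT (SD, n = 3 each), a ratio of 2.92. This was a log2 fold change of 1.40 (SE 0.27; limma adjusted p = 0.046). The call was lost without A2ARKO replicate 1, 2 or 3 (limma adjusted p of 0.13, 0.175 and 0.17) and without WT replicate 1 or 2 (0.065 and 0.066). It was also lost with equal library sums (0.073), with the pseudocount at 0.1 (0.053), with no filter (0.10) and with a replicate block (0.13). The log2 fold change was between 1.14 and 1.63 in those fits. Even in A2ARKO, Cox6b2 made up a small share of the Cox6b pair, 4.66%, 5.66% and 6.45% in A2ARKO and 2.11%, 1.07% and 3.72% in WT. None of its coding 50-base words occurred in another annotated gene, and no annotated gene overlapped it.

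The heart and skeletal muscle forms Cox6a2, Cox7a1 and Cox8b were each highest in WT replicate 2, the library with the highest muscle markers. Cox8b had 1.88, 0.33 and 1.05 FPKM in A2ARKO and 0.66, 15.74 and 0.63 FPKM in WT. Cox7a1 had 1.52, 1 and 1.49 FPKM in A2ARKO and 0.76, 2.89 and 0.64 FPKM in WT. Cox6a2 had 3.08, 1.47 and 1.84 FPKM in A2ARKO and 9.08, 19.17 and 3.83 FPKM in WT. For Cox6a2 every A2ARKO library was below every WT library, at a log2 fold change of -1.70 that was not called (limma adjusted p = 0.12), and WT replicate 1, with muscle markers at only 13.7 FPKM in sum, still had 9.08 FPKM. Without WT replicate 2 the log2 fold change of Cox6a2 was -1.19 (adjusted p = 0.16), without WT replicate 3 it was -2.22 and called (0.037), and that of Cox8b turned to 0.27 without WT replicate 2. The part of muscle RNA in these values was not tested.

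Cox4i2, the form known from lung and from oxygen-sensing cells, had 11.94, 20.50 and 26.08 FPKM in A2ARKO and 41.77, 3.69 and 5.40 FPKM in WT. The WT libraries lay on both sides of the A2ARKO libraries, and the log2 fold change of 0.85 had a 95% interval of -1.21 to 2.92 (limma adjusted p = 0.59). The library with the highest Cox4i2, WT replicate 1, also had the highest cartilage markers, 24946 FPKM in sum, and the A2ARKO replicates followed the same order for both, with marker sums of 2223, 4467 and 6243 FPKM. The other WT libraries did not: WT replicate 2 had less Cox4i2 than WT replicate 3 but the higher marker sum, 1326 against 485 FPKM. Without WT replicate 1 the log2 fold change was 1.84 and called (limma adjusted p = 0.040), so 1 library decided the result. The share of Cox4i2 in the Cox4 pair was 7.08%, 12.5% and 16.6% in A2ARKO and 20.9%, 1.96% and 4.12% in WT. The part of cartilage cell content in these values was not tested.

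**Figure D3:**
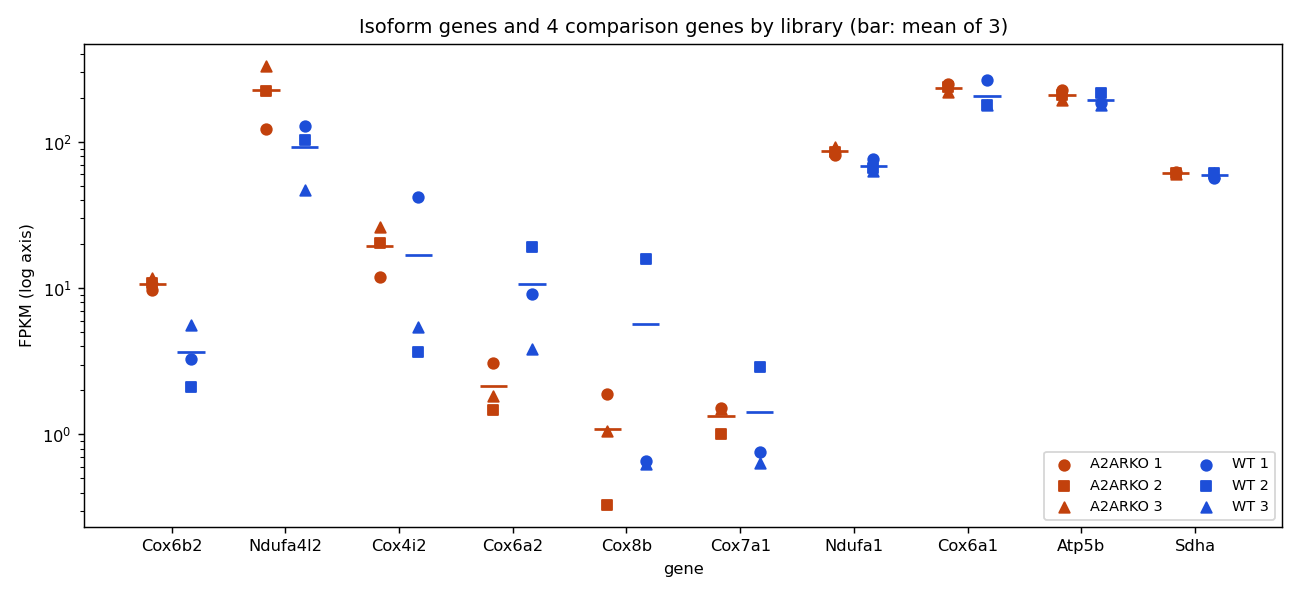
FPKM on a log axis for 6 isoform genes and for Ndufa1, Cox6a1, Atp5b and Sdha in each library, with a bar at the mean of 3 litters. The groups separate for Cox6b2, Cox6a2 and Ndufa1, whereas the WT litters of Cox4i2 run from 3.69 to 41.77 FPKM and those of Cox8b from 0.63 to 15.74 FPKM.

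Complex V, the ATP synthase, is built of the catalytic F1 head, a peripheral stalk and the membrane-bound Fo part. The catalytic beta subunit gene Atp5b had 227.57, 208.24 and 193.12 FPKM in A2ARKO and 185.81, 214.86 and 179.48 FPKM in WT. The alpha subunit gene Atp5a1 had 194.21, 184.04 and 175.13 FPKM in A2ARKO and 182.58, 219.78 and 184.44 FPKM in WT. Both overlapped between the groups, and the 5 genes of the F1 head had log2 fold changes between -0.096 and 0.12. The 4 stalk genes differed by even less, between -0.017 and 0.015, with a median level of 23.5 FPKM in A2ARKO. Atp5s, whose product is a coupling factor, had 3.15, 3.99 and 3.65 FPKM in A2ARKO and 4.76, 4.25 and 4.41 FPKM in WT. All A2ARKO values were below the WT values, but its log2 fold change of -0.25 was not called (limma adjusted p = 0.185).

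The c subunit, of which a ring turns in the membrane, is encoded by 3 genes that give the same mature protein. Atp5g3 had 73.72, 79.26 and 74.26 FPKM in A2ARKO and 72.01, 89.25 and 67.96 FPKM in WT. Atp5g1 had only 0.59, 0.82 and 0.76 FPKM in A2ARKO and 1.20, 0.86 and 0.80 FPKM in WT, and Atp5g2 had 0.38, 0.41 and 0.29 FPKM in A2ARKO and 0.70, 0.32 and 0.49 FPKM in WT, so both stayed below the filter. Atp5l, which encodes subunit g, was also below it at 0.38, 0.44 and 0.41 FPKM in A2ARKO and 0.66, 0.35 and 0.30 FPKM in WT. Nearly all coding sequence of these 3 low genes recurs elsewhere in the genome, while their noncoding sequence was not compared. Of their coding 50-base words, 99.7% in Atp5g1 and 100% in Atp5g2 and Atp5l also occurred in another annotated gene, whereas the share was 0% in Atp5g3. The other members below the filter were Cox7b2, listed at 0 in all 6 libraries, and Cox8c, known from testis, at 0.15 FPKM in WT replicate 1 and 0 elsewhere. In Cox7b2, 3 reads would correspond to 0.095 to 0.13 FPKM, which covers counting error only.

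Genes outside complex V shared coding sequence with other annotated genes as well. Of the 83 members with an annotated coding sequence, 42 shared no 50-base word with another gene and 12 shared at least 50%. These counts include annotated genes that overlap the member itself and are not copies at another locus. Gm42420 (mm10 chromosome 6, 39585753 to 39596595), for example, overlaps Ndufb2 (39592574 to 39603382), which stood at 51.1%. Ndufb4, at 100%, averaged 4.19 ± 0.61 FPKM in A2ARKO and 4.79 ± 0.81 FPKM in WT, and Cox7c, at 81.9%, 2.03 ± 0.36 FPKM in A2ARKO and 1.88 ± 0.21 FPKM in WT (SD, n = 3 each). At smaller shares the levels were higher in some genes, such as Uqcrb, at 72.9%, with 23.8 ± 2.2 FPKM in A2ARKO and 24.4 ± 2.7 FPKM in WT (SD, n = 3 each). The sources used here do not say how reads that match several loci were counted, so levels of such genes are uncertain. Of 44 pseudogenes that share sequence with a member, 31 were in the table. Apart from Gm15920, the highest value of any of them in any library was 2.5 FPKM, reached by Gm10039, a copy of Atp5g1, in A2ARKO replicate 1 and by Gm5436, a copy of Atp5o, in WT replicate 2.

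**Figure D4:**
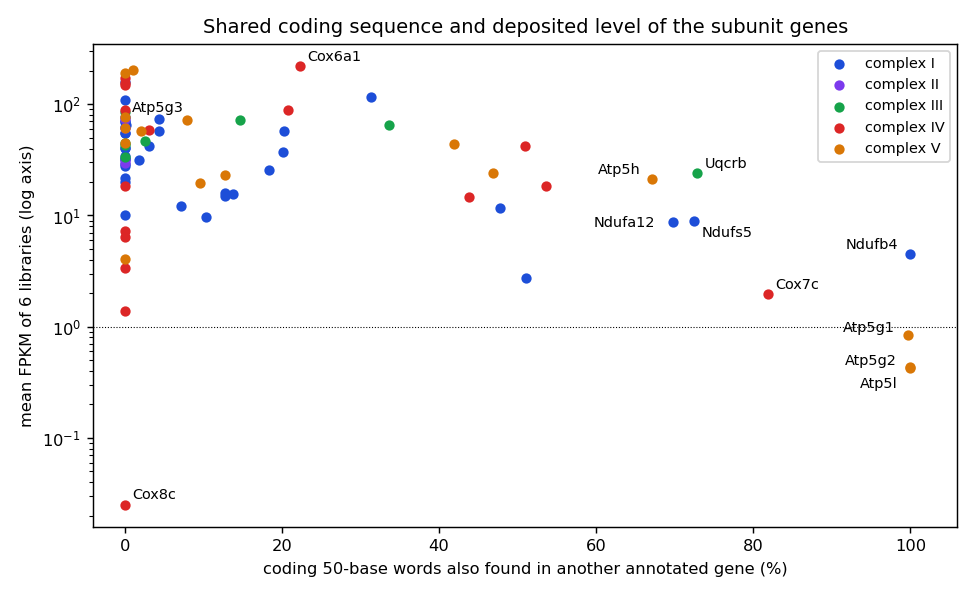
Mean FPKM of the 6 libraries (log axis) against the percentage of coding 50-base words also found in another annotated gene, for 82 subunit genes coloured by complex. Cox7b2, at 0 FPKM, is left out, and the dotted line marks 1 FPKM. The 5 genes at 81.9% or more, Cox7c, Ndufb4, Atp5g1, Atp5g2 and Atp5l, all lie under 5 FPKM.

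Many subunit genes ranked the WT litters in the same order. Among the 79 tested members WT replicate 2 had the highest WT value for 61, or 77.2%, and WT replicate 3 the lowest for 58, or 73.4%, against 30.8% and 33.5% of all genes tested. Over all 6 libraries, 43 members (54.4%) had their lowest value in WT replicate 3, against 20.6% of all genes tested. The highest value was in WT replicate 2 for 40 members (50.6%), against 18.3% of all genes. It was in A2ARKO replicate 1 for 24 members (30.4%), against 17.8% of all genes. The median member level was 38.6, 39.0 and 34.7 FPKM in A2ARKO and 39.7, 45.6 and 33.2 FPKM in WT, so the litters of WT spanned the A2ARKO values. WT replicate 2 was the library with the highest macrophage and muscle markers, and WT replicate 3 had the smallest sum of all FPKM, 231094, against 253399 to 300779 in the others. The part of cell content or scaling in this order was not tested.

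**Figure D5:**
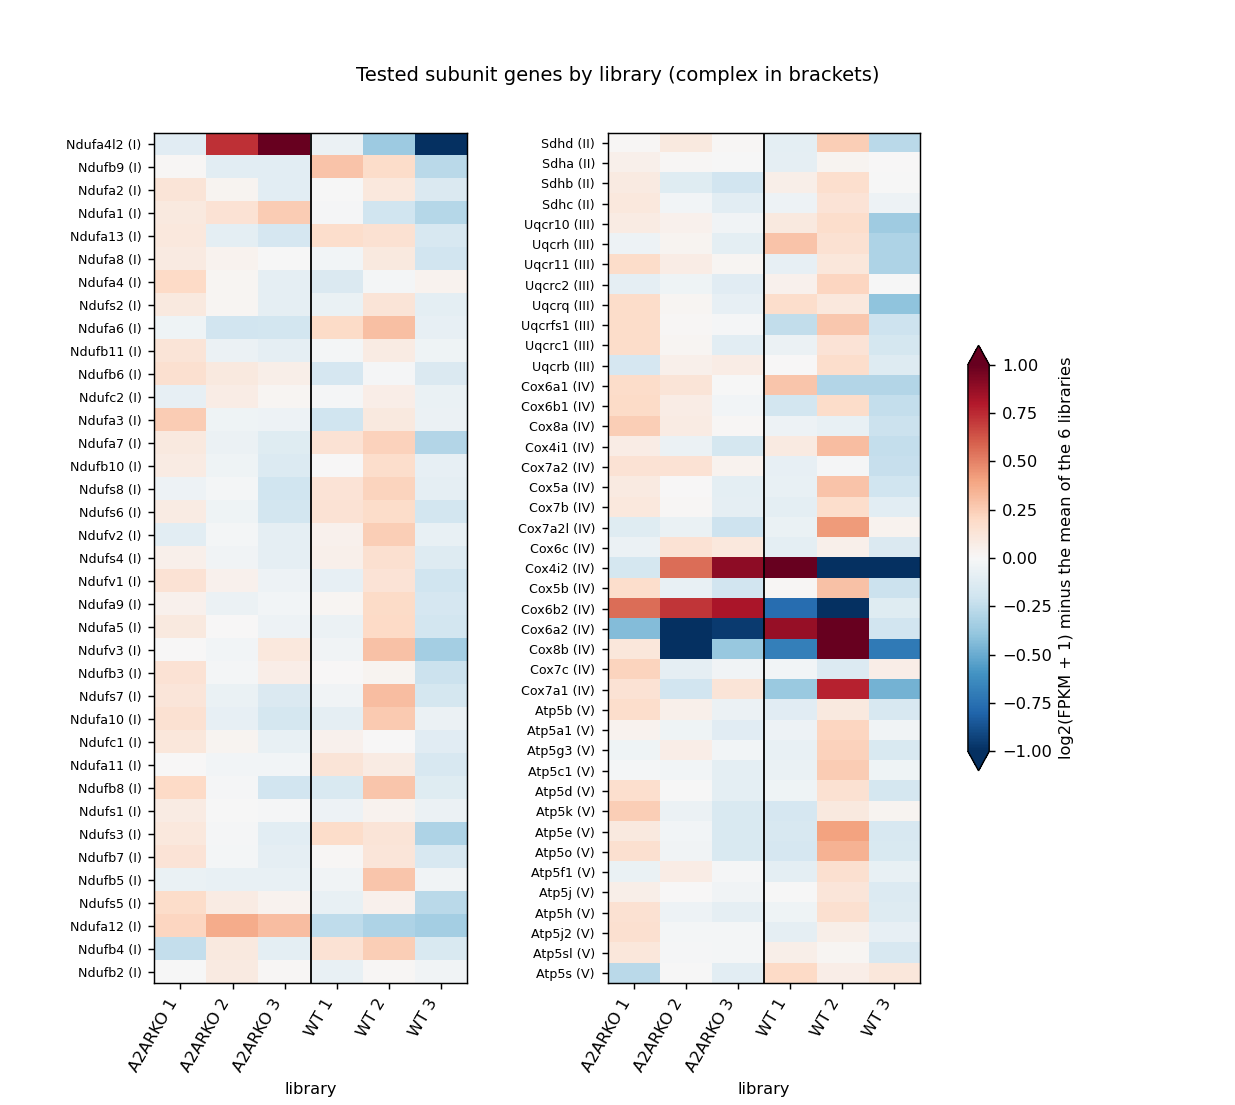
Log2(FPKM + 1) of the 79 tested subunit genes minus each gene's mean over the 6 libraries, with A2ARKO libraries left of the line and WT libraries right of it. Most rows are pale, with WT replicate 2 slightly high and WT replicate 3 slightly low, and strong colours are in Ndufa4l2 and the complex IV tissue isoform genes.

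The promoters of the members were searched for motifs of factors known to act on respiratory genes. RefSeq promoters on GRCm38.p6, from 250 bases before to 50 after a start site, were matched for 69 of the 84 members. On either strand, the palindromic site of the respiratory factor NRF1, whose letters are the first capitals in the Cox6a1 sequence printed here, was in 7.25% of the matched members and in 1.47% of 17492 protein-coding genes. CCGGAAG, the core of ETS factors such as GABP, was in 23.2% of members and 12.9% of all genes, AAGATGGCG, a YY1 site, in 11.6% of members and 2.14% of all genes, and TATAAA in 10.1% of members and 14.8% of all genes. Of the 8 genes for tissue isoforms, counting Ndufa4l2, 4 had a promoter in the table, and 0 of these held any of the first 3 motifs, while 2 of the 4 (50%) held TATAAA. The promoter of Cox6a1, the most abundant member, is shown because it holds 2 of them, and that of Cox6b2, which rose in A2ARKO, because it holds none of the 4. Holding none is not particular to Cox6b2, since many other matched members, among them Ndufa12, Atp5b and Sdha, also held none. Capitals mark the NRF1 site and CTTCCGG, which is CCGGAAG on the other strand. No pair of the 4 motifs overlapped in any matched member. Cox6a1 is at chr5:115348909-115349208 and Cox6b2 at chr7:4753045-4753344, both on the minus strand:
Cox6a1: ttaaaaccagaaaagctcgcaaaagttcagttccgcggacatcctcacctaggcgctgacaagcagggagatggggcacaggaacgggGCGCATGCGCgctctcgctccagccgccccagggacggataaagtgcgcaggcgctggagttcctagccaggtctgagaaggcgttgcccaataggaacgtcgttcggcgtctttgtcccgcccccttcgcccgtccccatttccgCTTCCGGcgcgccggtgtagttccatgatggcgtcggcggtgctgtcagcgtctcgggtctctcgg
Cox6b2: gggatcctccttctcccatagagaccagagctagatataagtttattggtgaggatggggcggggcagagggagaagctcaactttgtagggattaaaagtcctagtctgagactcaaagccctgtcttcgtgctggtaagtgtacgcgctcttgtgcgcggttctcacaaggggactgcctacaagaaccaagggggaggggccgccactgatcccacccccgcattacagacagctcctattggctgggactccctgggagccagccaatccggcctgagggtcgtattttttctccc

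Other genes of the respiratory machinery were likewise close between genotypes. Of 38 tested assembly factors 1 rose, 0 fell and 37 did not pass, against 3.31% of all genes tested called higher and 1.77% lower. Their median log2 fold change was 0.020. The one that rose was Cox18, which inserts a mitochondrially encoded subunit of complex IV into the membrane, at 5.62, 4.84 and 5.80 FPKM in A2ARKO and 3.66, 3.45 and 3.75 FPKM in WT (0.47 on the log2 scale; limma adjusted p = 0.046). With a library left out it did not pass in any of 6 fits, at adjusted p from 0.054 to 0.19. Of 19 subunits and carriers outside the symbol rule, among them cytochrome c1 (Cyc1), 0 were called, and Coq2, of ubiquinone synthesis, had the smallest p (log2 fold change 0.36; limma adjusted p = 0.075). None of 11 regulators of mitochondrial biogenesis, 14 genes of the tricarboxylic acid cycle or 74 mitochondrial ribosomal proteins was called by limma either. In these lists 1, 1 and 9 had an unadjusted limma p below 0.05, against 24.7% of all genes tested. The list medians were 0.023, 0.0034 and 0.064, and Esrra, Ogdh and Mrps12 had the smallest p in each list (limma adjusted p of 0.13, 0.13 and 0.060).

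Of 14 tested genes that steer pyruvate towards or away from mitochondria, 2 rose, 1 fell and 11 did not pass, with a median log2 fold change of 0.031. Pdp1, the phosphatase that switches pyruvate dehydrogenase on, fell to 5.87, 7.24 and 8.42 FPKM in A2ARKO, against 23.87, 22.40 and 25.26 FPKM in WT (log2 fold change -1.61; limma adjusted p = 0.0055). It also passed in each of the 6 fits that left out a library, with an adjusted p of at most 0.042. Pdk4, a kinase that switches the same enzyme off, rose to 9.72, 11.06 and 7.56 FPKM in A2ARKO, against 2.41, 3.13 and 4.40 FPKM in WT (log2 fold change 1.29; limma adjusted p = 0.030). Ldha, which turns pyruvate into lactate, rose at a log2 fold change of 1.35. Pdk4 lost the call without A2ARKO replicate 1, 2 or 3 or WT replicate 2 (adjusted p up to 0.13), and Ldha without any library other than WT replicate 1 (up to 0.14). Of 18 glycolysis genes 4 rose, 0 fell and 14 did not pass, at a median of 0.86, with Pfkl, Pkm, Hk1 and Pgam1 called. Over all genes tested 3.31% were called higher and 1.77% lower. Without A2ARKO replicate 1, 2 or 3 none of these 4 was called, with adjusted p from 0.055 to 0.19, and Pkm was called in no fit that left out a library. At an unadjusted limma p below 0.05 there were 14 of the 18 glycolysis genes, against 24.7% of all genes. For 13 of the 18 every A2ARKO library was above every WT library, against 18% of all genes. Of 8 genes of uncoupling and alternative electron routes, Sod2, the mitochondrial superoxide dismutase, rose at 1.95 (limma adjusted p = 0.029) and 7 did not pass. Sod2 lost the call without A2ARKO replicate 1, 2 or 3 (0.10, 0.11 and 0.12). Whether these lists differ from the subunit genes was not tested.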

How the data were processed

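The authors deposited 1 table of FPKM for 6 libraries; HTSeq and mm10 are named, per the submitters' processing notes. The sources used here do not give the aligner, versions, annotation, strand setting or gene lengths. Columns were assigned to samples by title. Genes with 1 FPKM or more in at least 3 libraries (11595) were fitted with limma 3.58.1 in R 4.3.3 (lmFit, then eBayes with trend) on log2(FPKM + 1). Tests were two-sided and used no replicate block, with Benjamini-Hochberg adjustment over all genes tested. The fit was tested on simulated data with known changes. FPKM fold changes on this scale understate the change of low genes. Depth was estimated where FPKM times exon length (genes up to 150 nt, GENCODE M21) takes whole-read steps; at least 99.0% of values were within 0.1 read of a whole number. Positions and exon lengths are from GENCODE M21 (GRCm38, mm10), which may differ from the authors' annotation. Coding 50-base words of each member were searched on both strands in all other annotated transcripts; a partner gene shares at least 20 of them. Named genes follow a rule: called members, in each complex the highest levels, largest differences and smallest p, members below the filter, isoform sets, catalytic subunits, and leading genes of each related list. The members and lists were chosen with earlier results of these data known. Protein sequences were not analysed here. Alternatives were a pseudocount of 0.1, no filter, rescaling to the same sum, quantile normalization, no trend, a replicate block and each library left out.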

Additional observations from a re-analysis of the deposited data

How the results depend on the processing

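Limma called 589 of 11595 genes (384 higher and 205 lower in A2ARKO), 213 with no filter, 348 with libraries rescaled to the same sum, 2 with a replicate block and 50 to 900 with a library left out. After rescaling to the same sum the split was 178 higher and 170 lower, and after quantile normalization 302 higher and 259 lower, with the median of all genes at -0.098 and -0.037 in those fits. Members called numbered 2, but 1 without the filter, 1 at a pseudocount of 0.1, 0 with equal sums, 0 with a replicate block and 0 to 3 with a library left out. Same-numbered litters deviated in opposite directions (correlations of -0.52, -0.33 and -0.39), and the highest of the other correlations was 0.46. Deviations were taken from the mean of 3 litters in each group, which forces some correlations below 0. These values therefore cannot decide whether the numbers pair litters, which the labels do not state. The block also removes degrees of freedom. Rescaling to the same sum put the medians of complexes I to V at -0.11, -0.11, -0.056, -0.014 and -0.11, so all 5 changed sign. With each library left out the medians of complexes I to V ranged from -0.058 to 0.076, -0.043 to 0.052, -0.10 to 0.15, -0.017 to 0.16 and -0.052 to 0.088. Of 44 named genes 13 changed sign somewhere, and none of these 13 was called in the fit where it did. After rescaling, Sdhd, Sdha, Uqcr10, Atp5b, Cox7a1, Ndufa4, Ndufs1 and Ndufv1 were at -0.037, -0.079, -0.062, -0.0021, -0.014, -0.032, -0.065 and -0.023, and after quantile normalization Atp5b and Cox7a1 at -0.019 and -0.069. With a library left out, Sdhd ranged from -0.033 to 0.23, Uqcr10 from -0.11 to 0.16, Uqcrh from -0.26 to 0.039, Atp5a1 from -0.13 to 0.0062, Cox4i1 from -0.25 to 0.023, Cox7a1 from -0.17 to 0.45, Cox8b from -1.41 to 0.27 and Atp5g3 from -0.082 to 0.11. The cause of these moves was not tested. With 3 litters a group the median standard error of a member was 0.12 log2 units, which limits how small a difference can be seen.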
